A study of Homo sapiens with 1 sample.

Results

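The miR-15/16 family (miR-15, miR-16, miR-195, miR-424 and miR-497) and its relative miR-503 were examined in DLD-1, an established human colorectal carcinoma cell line, on 1 microRNA array. The members were the 10 mature microRNAs (miRNAs) of these names that were chosen by name among the human miRNAs of the array: 7 guide arms (miR-15a-5p, miR-15b-5p, miR-16-5p, miR-195-5p, miR-424-5p, miR-497-5p and miR-503-5p) and 3 arms from the other side of a hairpin (miR-15b-3p, miR-16-2-3p and miR-424-3p). They were 10 of 2549 human miRNAs, each with 20 spots, and were read by 25 probes on 200 spots in all. The series asked how the circular RNA circLONP2 bears on miRNA levels. The only group used here was DLD-1 transfected with the empty control vector pLVX, without added circLONP2, so the values describe the family in control cells and no condition was compared. The time from transfection to harvest was not given in the sources used here.

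A miRNA is cut from a hairpin-shaped precursor, and either side of the hairpin, the 5p or the 3p arm, can be loaded into the silencing complex. Its seed, the bases near the 5′ end that pair with target messages, decides most of what it represses, so miRNAs with the same seed are treated as a family with overlapping targets. The miR-15/16 family is known for repressing cyclins, cyclin-dependent kinases and the survival gene BCL2, and thereby for slowing entry into DNA synthesis. The pair on chromosome 13 is known for its loss in chronic lymphocytic leukaemia.

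The mature sequences are shown because the family is defined by them and because its members differ outside the seed. They are from RefSeq (GRCh38.p14), and capitals mark bases 2 to 8, the seed.
hsa-miR-15a-5p: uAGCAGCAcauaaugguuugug
hsa-miR-15b-5p: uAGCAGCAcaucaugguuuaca
hsa-miR-16-5p: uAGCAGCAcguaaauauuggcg
hsa-miR-195-5p: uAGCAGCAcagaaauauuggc
hsa-miR-424-5p: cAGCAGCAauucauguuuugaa
hsa-miR-497-5p: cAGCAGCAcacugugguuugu
hsa-miR-503-5p: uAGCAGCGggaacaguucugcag
hsa-miR-15b-3p: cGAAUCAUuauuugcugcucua
hsa-miR-16-2-3p: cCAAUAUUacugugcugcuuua
hsa-miR-424-3p: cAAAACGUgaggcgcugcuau

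The guide arms of miR-15a, miR-15b, miR-16, miR-195, miR-424 and miR-497, 6 in number, have the same 7 seed bases, and miR-503-5p departs from them at the last one (A8G against miR-15a-5p, counting from 1 at the 5′ end). Compared base by base from the 5′ end with no gaps, seed included, the 21 pairs of the 7 guide arms were 47.6% to 90.5% identical. The closest pair was miR-16-5p and miR-195-5p, with 19 of 21 compared bases identical and the substitutions G10A and U11G. miR-15a-5p and miR-15b-5p were identical at 18 of 22 bases and differed by A12C, G20A, U21C and G22A. The 3 members from the other arm have seeds unlike that of the guide arms and unlike each other.

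The family is encoded by 4 pairs of neighbouring hairpins. MIR15A (chr13:50049119-50049201, minus strand) and MIR16-1 (chr13:50048973-50049061, minus strand) lie 57 bases apart within the span of the long non-coding RNA gene DLEU2. MIR15B (chr3:160404588-160404685, plus strand) and MIR16-2 (chr3:160404745-160404825, plus strand) lie 59 bases apart within SMC4, which encodes a subunit of the condensin complexes that compact chromosomes, and within the span of the long non-coding RNA gene TRIM59-IFT80. MIR195 (chr17:7017615-7017701) and MIR497 (chr17:7017911-7018022), both on the minus strand, lie 209 bases apart within the non-coding host gene MIR497HG. MIR424 (chrX:134546614-134546711) and MIR503 (chrX:134546328-134546398), also on the minus strand, lie 215 bases apart, with MIR503 inside the non-coding gene MIR503HG and MIR424 overlapping only its edge. Exon and intron positions within the host genes were not used here.

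Each guide arm has 1 hairpin except miR-16-5p, which is cut from both miR-16 hairpins. The hairpins are shown because the mature arm, in capitals, is the same in both while the flanks, loops and 3p arms differ, so the array could not assign its signal to a locus.
MIR16-1: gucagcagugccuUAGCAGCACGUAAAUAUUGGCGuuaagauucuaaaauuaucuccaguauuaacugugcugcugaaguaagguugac
MIR16-2: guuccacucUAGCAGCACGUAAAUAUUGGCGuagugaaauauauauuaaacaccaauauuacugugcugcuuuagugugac

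The array held 53144 spots, none of them saturated, and the scanner software flagged 45.3% of those for human miRNAs as well above background. Brightness below is the software's background-subtracted signal of a spot on a linear scale, with spots marked as outliers left out. The errors are SDs or standard errors over spots of 1 array, which measure technical spread only. With 1 array there was no biological replicate, so no test was made. The precision is limited by this number of arrays. The 5 epithelial miRNAs taken as markers of the labelled cell type (the miR-200 family, miR-141 included) were all detected. miR-141-3p had a total signal of 1111.9, and the others had totals from 4.86 to 29.9. Of 4 intestinal markers 2 were detected. Of 13 markers of other tissues or cells 7 were detected, against 56.8% of all human miRNAs on the array. Their total signals ran from 3.02 (miR-133a-3p) to 28.4 (miR-124-3p), much the same range as the epithelial markers other than miR-141-3p. The detected members, with totals from 2.44 to 18.6, lay at a similar level, and how far signals this low came from the named miRNAs was not tested.

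3 of the 10 members carried the software's Detected flag: miR-16-5p, miR-15b-5p and miR-424-3p. This was 30% of the members, against 56.8% of all human miRNAs on the array (1448 of 2549). Among the 6 guide arms that share the seed, 2 were detected, miR-16-5p and miR-15b-5p, and miR-503-5p was not. Thus the 2 detected guide arms were those that the chromosome 3 pair encodes, one of which chromosome 13 encodes as well. No guide arm encoded only at the chromosome 13, chromosome 17 or chromosome X pair carried the flag. The 3p arms, members or not, ran otherwise. Those of the chromosome 3 pair, miR-15b-3p and miR-16-2-3p, were not detected. Of the 3p arms of the other pairs, miR-16-1-3p, miR-195-3p and miR-424-3p were detected, and miR-15a-3p, miR-497-3p and miR-503-3p were not. Under the weaker criteria given below, guide arms of the other pairs passed as well.

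miR-16-5p was the brightest member. Its first probe had spots from 34.4 to 44.8 (median 35.9, 9 spots), and its second had spots from 56.3 to 66.8 (median 64.2, 9 spots). All 18 spots used were well above background, and no spot of the dimmer probe reached the brighter one. Over both probes the mean brightness was 50.5 ± 13.3 (SD, 18 spots). The total signal, in which the software sums a miRNA's probes, was 18.6 with a software error of 1.67, rank 799 among the 1448 detected miRNAs.

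miR-15b-5p came next, but its signal rested on 1 of its 2 probes. The first had spots from 32.0 to 61.1 (median 58.5, 10 spots), all well above background. The second had spots from 6.63 to 16.1 (median 10.3, 10 spots), none of them well above background. The probes did not overlap in any spot, and the mean over both was 31.4 ± 22.4 (SD, 20 spots), an SD that includes the gap between the probes. The total signal was 9.50 with an error of 1.19 (rank 1045), and it held only the brighter probe. With the dimmer probe added it would be 11.5.

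miR-424-3p was the only detected member from the other side of a hairpin. Its first probe had spots from 9.20 to 13.6 (median 11.3, 9 spots) and its second from 10.5 to 15.2 (median 13.3, 10 spots), so these probes overlapped. None of the 19 spots was well above background, although all 19 passed the software's weaker flag of a positive and significant signal. The mean brightness was 12.4 ± 1.89 (SD, 19 spots). The total signal was 2.44 with an error of 0.734 (rank 1381), and 4.63% of detected miRNAs had a lower total.

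The detected members were dim among detected miRNAs. The median total signal of detected human miRNAs was 23.1, the lower quartile 8.42 and the highest 19786. All 3 members lay under the median, miR-16-5p and miR-15b-5p above the lower quartile and miR-424-3p under it.

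**Figure D1:**
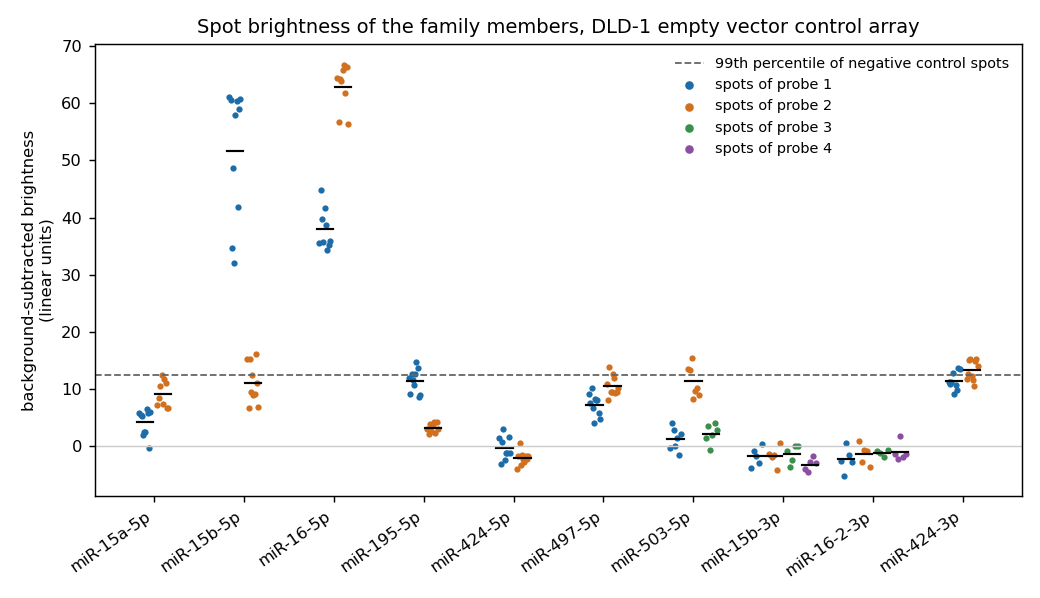
Background-subtracted brightness (linear units) of each spot of the 10 members, by probe, with black bars at the probe means and a dashed line at 12.5 (99th percentile of negative controls). Both probes of miR-16-5p and 1 probe of miR-15b-5p stand clear of the line, and the spots of the remaining members lie near it or below.

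The 7 members without the flag were not all alike. For 4 of them, all guide arms, the brighter probe had a mean of 9.12 to 11.5, under the brighter probe of miR-424-3p (13.3) and far under those of miR-16-5p and miR-15b-5p. miR-497-5p had spots from 4.13 to 10.1 on one probe and from 8.15 to 13.8 on the other, with a mean of 8.90 ± 2.45 (SD, 20 spots). miR-195-5p had spots from 8.55 to 14.8 (median 11.7) on one probe and from 2.05 to 4.31 (median 2.99) on the other. miR-503-5p, read by 3 probes, had spots from 8.33 to 15.4 on its second probe, while its other probes had means of 1.21 and 2.18. Thus 1 probe of miR-195-5p and 1 of miR-503-5p were about as bright as the dimmer probe of miR-15b-5p, and the mean of each of their remaining probes was 3.24 or less. miR-15a-5p had spots from -0.248 to 6.53 on one probe and from 6.63 to 12.5 on the other.

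The remaining 3 members gave no signal above background. miR-424-5p had a mean brightness of -1.23 ± 1.87 (SD, 19 spots), miR-16-2-3p one of -1.49 ± 1.60 (SD, 19 spots) and miR-15b-3p one of -2.03 ± 1.58 (SD, 20 spots). No spot used for these members was positive and significant (1 spot of miR-424-5p left out as an outlier was). miR-424-5p, which carries the same seed as miR-16-5p, was thus the dimmest of the guide arms.

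The flag was set by the ratio of a probe's total signal to its error. The lowest value of a miRNA's best probe was 3.01 among detected human miRNAs and 2.98 among those not detected, and a probe under a ratio of 3 was left out of the sum. The best ratios of miR-16-5p and miR-15b-5p were 8.57 and 7.97, far from this limit, and that of miR-424-3p was 3.33. Just under it came miR-195-5p with 2.91, miR-503-5p with 2.88, miR-497-5p with 2.70 and miR-15a-5p with 2.35. The dimmer probes of miR-15b-5p (2.82) and miR-424-3p (2.92) also fell short, and 1 probe of the undetected miR-195-5p had nearly the same ratio as the second of these. The ratios of miR-424-5p, miR-16-2-3p and miR-15b-3p were all below 0. Members just inside and just outside the limit therefore differed by less than those inside it differed among themselves.

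**Figure D2:**
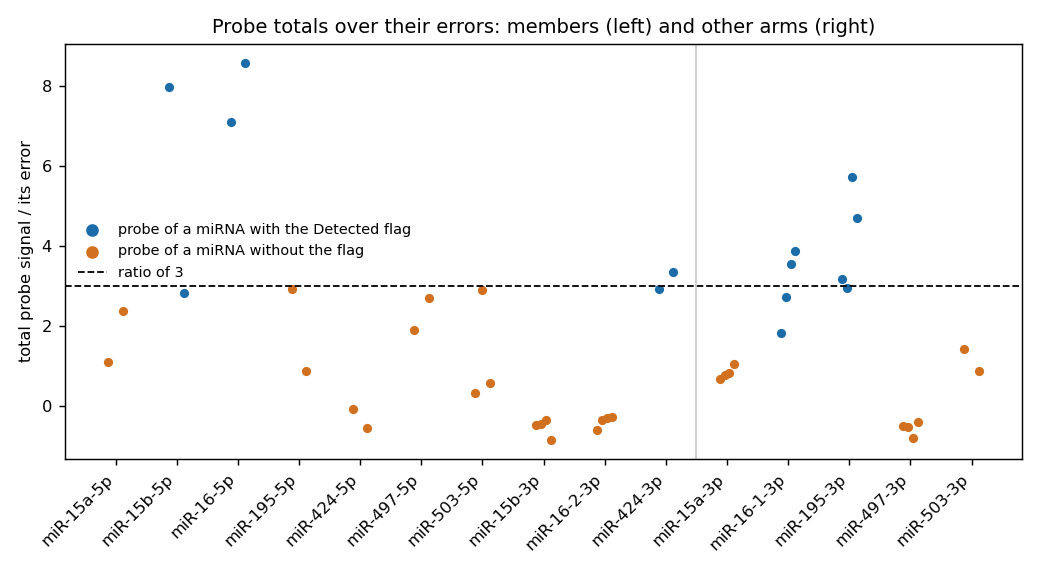
Total signal of each probe divided by its error (no unit), for the 10 members to the left of the vertical line and the 5 other arms of their hairpins to the right; the dashed line is a ratio of 3, and colour gives the software's flag. miR-16-5p and 1 probe of miR-15b-5p are far above the line, and the brighter probes of miR-195-5p, miR-503-5p and miR-497-5p are at 2.70 to 2.91.

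How many members counted as detected turned on the treatment of miR-424-3p and of the 4 members just under the limit. With at least 0.5 of the spots of 1 probe well above background, 2 members passed, against 49.9% of human miRNAs. With every spot of a probe well above background the same 2 passed, miR-16-5p and miR-15b-5p, against 45.8%. Both criteria dropped miR-424-3p. With the brightest probe above 12.5, the 99th percentile of 1000 negative control spots, 3 members passed, against 55.9%.

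Weaker criteria added miR-15a-5p, miR-195-5p, miR-497-5p and miR-503-5p together. When a probe needed at least 0.5 of its spots to be positive and significant, 7 of 10 members passed, against 68.9% of human miRNAs. The negative controls comprised 7 probes, one of which was bright (median 8.62, against medians of -3.18 to 2.27 for the others). Without that probe the 99th percentile was 5.58 and the same 7 members passed, against 64.7%. A probe ratio of at least 2 in place of 3 also gave these 7, against 61.6%. Under these weaker criteria 5 of the 6 guide arms with the shared seed passed, all but miR-424-5p, and the share of members was close to or above that of all miRNAs. Under the 4 stricter criteria, the flag included, it was lower.

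On a log2 scale set to 0 at a brightness of 248.8 (the 75th percentile among probes of detected miRNAs), the members had a median of -5.42, against -4.27 over all human miRNAs. The median of the 6 guide arms with the shared seed was -5.12. miR-16-5p lay at -2.35, with 68.7% of human miRNAs dimmer, miR-15b-5p at -3.43 with 62.1% dimmer, and miR-424-3p at -4.34 with 47.7% dimmer. In falling order there followed miR-497-5p (-4.86), miR-195-5p (-5.39), miR-15a-5p (-5.44), miR-503-5p (-6.19), miR-424-5p (-7.80), miR-16-2-3p (-7.92) and miR-15b-3p (-7.96, the floor). These are levels of array signal. A probe's brightness also depends on the probe itself, so the order is one of signal and not of RNA amount.

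Of the 9 steps between neighbours in this order, 6 exceeded 2 standard errors over spots. miR-16-5p exceeded miR-15b-5p by 1.08 (SE 0.10) and miR-15b-5p exceeded miR-424-3p by 0.92 (SE 0.10). miR-195-5p and miR-15a-5p could not be ordered (0.06, SE 0.18), nor could miR-424-5p, miR-16-2-3p and miR-15b-3p. When the mean brightness of separate probes was compared between neighbours, the ranges of probe means did not overlap at 2 steps, although single spots did. These were the step from miR-424-3p to miR-497-5p (0.52, SE 0.09) and that from miR-503-5p to miR-424-5p (1.62, SE 0.18), whose size the floor sets in part. The brighter probe of miR-15b-5p (mean 51.7) lay between the probes of miR-16-5p (38.0 and 62.9), so which of these was higher depended on the probe chosen.

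Probes of 1 member therefore differed as much as neighbouring members did. The difference between the brightest and dimmest probe of miR-15b-5p was 2.25 on the log2 scale (SE 0.19), larger than in 90.0% of the 1447 detected miRNAs with more than 1 measured probe, whose median was 0.36. For miR-16-5p it was 0.73 (SE 0.05) and for miR-424-3p 0.21 (SE 0.09). The probe sequences were not used here, and binding of 1 member's probes by another member was not tested. The pair with the most similar sequences, miR-16-5p and miR-195-5p, had mean brightness of 50.5 and 7.56.

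Arms of the same hairpin were compared next, as differences of signal between probes of different sequence. By mean brightness the 5p arm, the guide in this family, was the higher in 6 of 8 hairpins and the 3p arm in 2. The same value of miR-16-5p enters this count at MIR16-1 and at MIR16-2. No such count was made over the other hairpins of the array. On the floored log2 scale the split was 5 to 3, with MIR503 changing sides by less than 2 standard errors over spots. In 4 hairpins (MIR15B, MIR16-2, MIR497 and MIR424) the mean of 1 arm was under the floor of 1, so the floor sets the size and the standard error of those log2 differences. In 3 of the remaining 4, all but MIR503, the difference exceeded 2 standard errors. For MIR15B the 5p arm exceeded the 3p arm by 4.53 on the log2 scale (SE 0.09). For MIR16-2 the difference was 5.56 (SE 0.05), with the reservation that miR-16-5p also comes from MIR16-1. For MIR16-1 the 5p arm exceeded miR-16-1-3p by 2.20 (SE 0.16).

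The reverse order was seen at MIR424 and MIR195. At MIR424 the 3p arm was detected and the 5p arm was not, and the 5p arm was lower by -3.46 (5p minus 3p, SE 0.10). At MIR195 the 5p minus 3p difference was -1.46 (SE 0.11). miR-195-3p had 4 probes with means of 12.6, 11.6, 26.3 and 20.1, a mean brightness of 17.7 ± 7.07 (SD, 20 spots) and 8 spots well above background. It was detected with a total signal of 5.43, while miR-195-5p, at 7.56 ± 4.50 (SD, 19 spots), was not. The dimmest of the 4 probes of miR-195-3p was about level with the brighter probe of miR-195-5p (mean 11.5), so the spots of these probes overlapped.

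At the remaining hairpins neither arm was detected. For MIR497 the 5p arm exceeded the 3p arm by 3.10 (SE 0.08), and miR-497-3p was at the floor with a mean brightness of -2.12. For MIR15A the difference was 1.11 (SE 0.26), with miR-15a-3p at 3.13 ± 1.81 (SD, 20 spots). The dimmer probe of miR-15a-5p (mean 4.15) was about level with the brightest probe of miR-15a-3p (mean 3.98), so this difference depended on the probe. For MIR503 it was -0.14 (SE 0.24), within 2 standard errors. Of all the arms of the chromosome 13 pair, those cut from it alone are miR-15a-5p, miR-15a-3p and miR-16-1-3p. The last of these was detected, with a mean of 11.9 ± 4.07 (SD, 20 spots) and a total signal of 2.75. As for miR-424-3p, none of its spots was well above background, and its total held 2 of its 4 probes.

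**Figure D3:**
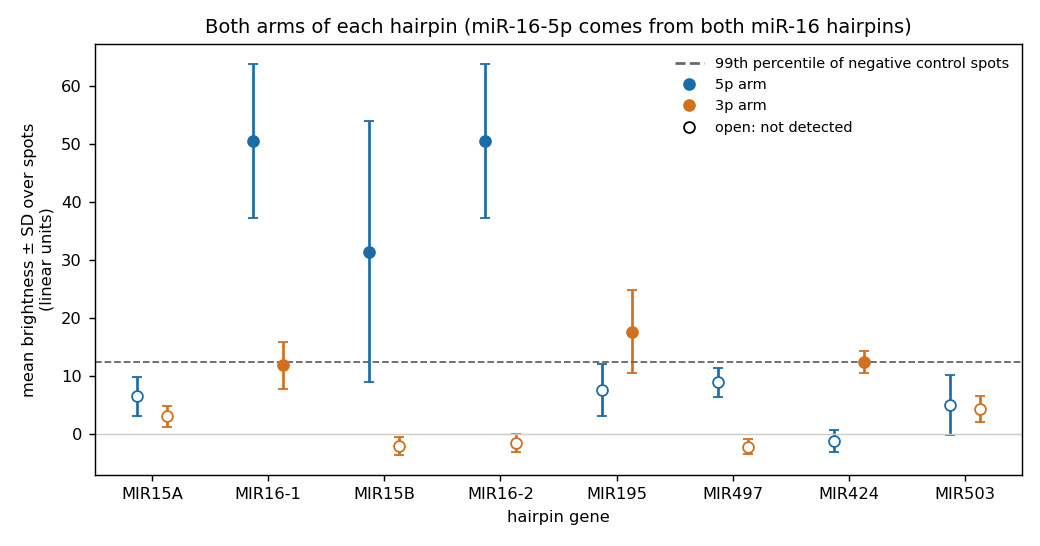
Mean background-subtracted brightness (linear units) of the 5p and 3p arms of the 8 hairpins, with SD over spots; filled circles carry the Detected flag, open circles do not, and the dashed line is at 12.5 (99th percentile of negative controls). miR-16-5p is drawn at both of its hairpins, and at MIR195 and MIR424 the 3p arm, at 17.7 and 12.4, lies above the 5p arm.

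The other arms are shown because the 3p arms of miR-16-2 and miR-195 share a seed. Capitals again mark bases 2 to 8, from RefSeq.
hsa-miR-195-3p: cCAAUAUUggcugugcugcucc
hsa-miR-16-1-3p: cCAGUAUUaacugugcugcuga
hsa-miR-15a-3p: cAGGCCAUauugugcugccuca
hsa-miR-497-3p: cAAACCACacugugguguuaga
hsa-miR-503-3p: gGGGUAUUguuuccgcugccagg

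miR-16-2-3p and miR-195-3p, which share a seed, had unequal signal. miR-195-3p had every spot positive and significant, and miR-16-2-3p had none. miR-16-1-3p, whose seed departs from theirs at 1 base, was detected at the lower level given above.

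Carriers of the guide seed on the array were not limited to the members. A miRNA with the same seed (miR-6838-5p), one that shares its bases 2 to 7 but not base 8 (miR-646) and a pair with the 7 letters displaced by 1 base are shown. Capitals mark bases 2 to 8 in miR-6838-5p and miR-646, and bases 1 to 7, where the 7 letters of the seed stand, in miR-103a-3p and miR-107.
hsa-miR-6838-5p: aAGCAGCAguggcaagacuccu
hsa-miR-646: aAGCAGCUgccucugaggc
hsa-miR-103a-3p: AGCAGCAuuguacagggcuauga
hsa-miR-107: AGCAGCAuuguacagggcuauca

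Of the matched human miRNAs of the array, miR-6838-5p was the 1 miRNA outside the family with the same bases 2 to 8. It is encoded on chromosome 7 (chr7:44073407-44073428, minus strand) and had a mean brightness of 113.5 ± 16.4 (SD, 20 spots) with every spot well above background. Its probes had means of 114.0 and 113.1, and its total signal of 41.7 (rank 521) exceeded that of every member. miR-646, which shares bases 2 to 7, had a total of 17.2 (rank 830), with probe means from 15.2 to 77.5. miR-103a-3p and miR-107, known for roles in metabolism and with the 7 letters 1 base nearer the 5′ end, had totals of 11.02 (rank 987) and 3.63 (rank 1316). All 4 were detected, against 56.8% of all human miRNAs on the array. miR-646 was added after its values were seen, and the total of miR-107 held only 1 of its 2 probes. Of the miRNAs with this seed, the brightest on this array was thus not a member of the classical family. This too is an order of array signal and not of RNA amount.

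**Figure D4:**
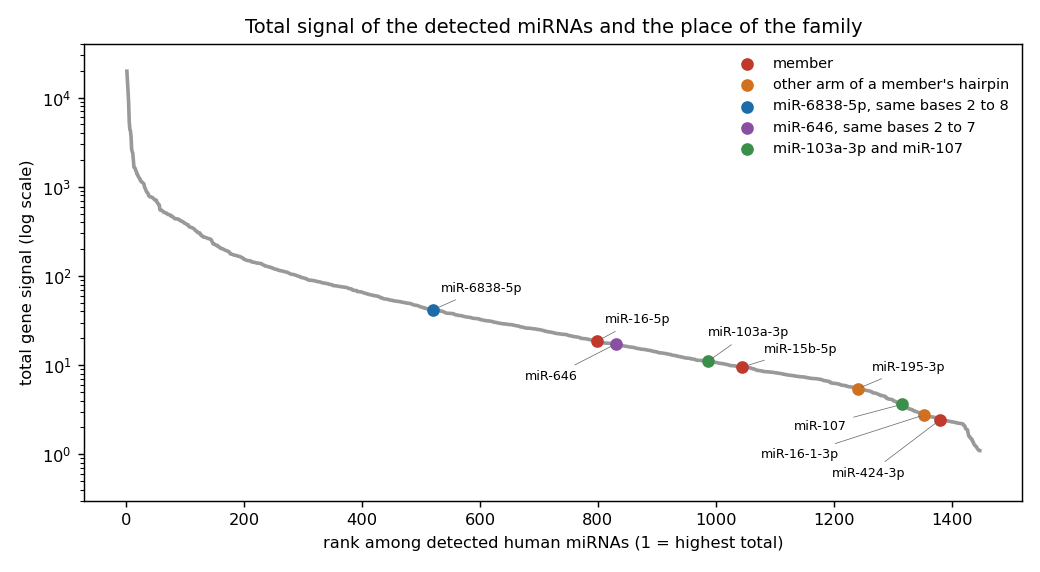
Total gene signal (log scale) of the 1448 detected human miRNAs against rank, as a grey line, with the detected members, the detected other arms of their hairpins and the related miRNAs marked. miR-6838-5p at 41.7 lies above all members, of which miR-16-5p is the highest at 18.6.

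With miR-6838-5p included, 3 of the 7 array miRNAs with this seed were detected, or 42.9%. Seeds carried by at least 6 matched miRNAs of the array formed 8 groups, in which the share detected ran from 8.33% to 100% with a median of 58.3%. In 5 groups the share was higher than in the miR-15/16 group and in 2 lower. Among the higher were the miR-17 group, which is known for promoting proliferation (7 of 7), and let-7, known for repressing growth genes (9 of 11). Among the lower were the miR-130 group (2 of 6) and a miR-548 group (1 of 12).

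**Figure D5:**
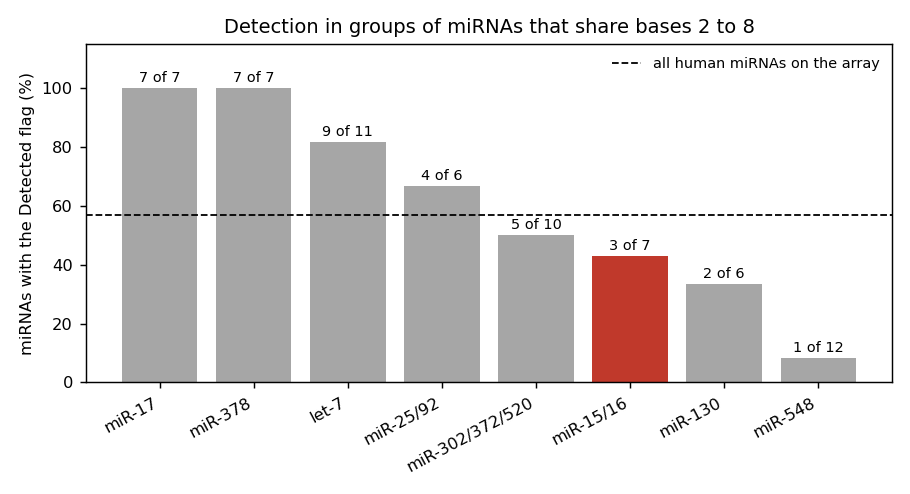
Share of miRNAs with the Detected flag (%) in the 8 groups of at least 6 array miRNAs that share bases 2 to 8, with counts above the bars and the share of all human miRNAs, 56.8%, as a dashed line. The miR-15/16 group, in red, has 3 of 7.

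Base composition moved with signal on this array. Over the 2248 human miRNAs matched to RefSeq, the share of G and C in the mature sequence had a Spearman correlation of 0.487 with brightness, as a description across miRNAs of 1 array. Of miRNAs with at most 50% G and C 39.6% were detected (441 of 1113), and of those above it 73.8% (838 of 1135). The members ran from 36.4% to 56.5%, with 7 of 10 in the lower class. Of these 7, miR-16-5p (45.5%) and miR-15b-5p (40.9%) were detected. Of the 3 in the upper class, miR-424-3p (52.4%) was detected and miR-497-5p and miR-503-5p were not. miR-6838-5p had 54.5%. Within a hairpin, the arm with the higher mean brightness was richer in G and C at MIR15B, MIR16-2, MIR497, MIR195 and MIR424. It was poorer at MIR15A and MIR503, and the shares were equal at MIR16-1. The part of base composition in the signals of the members and the other arms was not tested.

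The authors' normalized log2 values of the same array followed the flag. miR-16-5p had 3.82, miR-15b-5p 2.95 and miR-424-3p 2.33, the last being the lowest value of any detected human miRNA. The 7 members without the flag all had 2.32, the lowest value in the table, so these values held no order among miR-497-5p, miR-195-5p, miR-15a-5p, miR-503-5p and the 3 members at background.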

How the data were processed

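miRNA was measured on 1 single-colour Agilent array, and the sample was assigned to its group from its title. The scanner output deposited by the authors holds spot intensity on a linear scale, with local background subtracted by Agilent Feature Extraction 11.0.1.1. Log2 values were deposited too, which the methods of the authors describe as quantile normalized. Which arrays entered that normalization was not given in the sources used here, and labels and methods describe the labelling differently.

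Control and outlier spots were left out. Brightness was floored at 1 before log2, and spots of a probe and then probes of a miRNA were averaged. The reference subtracted was the 75th percentile among probes of detected miRNAs with at least 0.5 of their spots well above background. Members were matched by name, and 2248 of 2549 human miRNAs were matched to RefSeq. The named miRNAs were the members, the other arms of their hairpins, miRNAs with the same bases 2 to 8, and miR-103a-3p and miR-107. miR-646 was added after its values were seen. The members and lists were chosen with earlier results of these data known. Seed groups, base composition and neighbouring hairpins were added after the values were seen. Alternatives covered the detection criterion, background correction (normexp, offset 50, limma 3.58.1 in R 4.3.3), scaling, outliers and probe summary. Python 3.11.15, numpy 2.4.6 and pandas 2.3.3 were used. The averaging was tested on simulated data with every probe level above the floor, so it was not tested for signals at or under the floor.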

Additional observations from a re-analysis of the deposited data

How the results depend on the processing

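No paired analysis was possible because all values come from 1 array. The members' median of -5.42 became -2.21 with normexp background correction, -4.53 with the brightest probe, -9.57 with the total gene signal, -3.54 with the authors' normalized values and -3.63 with the percentile over all probes. All 10 members stayed below the reference in each of these settings and with outlier spots kept. This is not particular to the members, since the reference is high. In the main setting the median over all human miRNAs was -4.27. Detected members rose from 3 to 7, and guide arms with the shared seed from 2 to 5, with positive and significant spots, without the bright negative control probe, and with a probe ratio of at least 2, the last pair chosen after seeing the data. With the brightest probe 2 neighbouring pairs changed place. In the same order of normexp, brightest probe, total signal and authors' values, the 5p minus 3p difference of 4.53 at MIR15B became 0.61, 5.65, 6.57 and 0.63, and that of 5.56 at MIR16-2 became 0.90, 5.80, 7.54 and 1.5. The difference of -3.46 at MIR424 became -0.31 with normexp, -4.61 with the total signal and -0.0039 with the authors' values. The probe difference of 2.25 in miR-15b-5p became 0.64 with normexp. Where each spot of a probe had to be well above background, the dimmer probe of miR-15b-5p dropped out. Only miR-16-5p among the members then had probes to compare, and its difference was 0.73. The normexp offset and the authors' shared lowest value both narrow the range of dim signals by construction, and the total signal sets each undetected miRNA to 0.1. Low signal over background limits what can be said of the 7 undetected members, for which absence of the flag is not absence of the RNA.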

Other observations

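The chromosome X pair has further miRNA hairpins within 10 kb, and 5 of their mature arms were matched on the array. miR-542-5p was detected, with a mean brightness of 38.5 ± 6.69 (SD, 20 spots), every spot well above background and a total signal of 14.2 (rank 897). Its 2 probes had means of 39.3 and 37.7. The 4 arms of the miR-450 hairpins were not detected, with mean brightness of -0.267 for miR-450a-1-3p, -1.36 for miR-450a-5p, 0.00170 for miR-450b-3p and 1.69 for miR-450b-5p. At this locus, detection was thus seen for miR-424-3p and miR-542-5p and not for miR-424-5p, miR-503-5p, miR-503-3p or the miR-450 arms. Of all human miRNAs on the array 56.8% were detected. The best probe ratios of miR-424-3p (3.33) and miR-503-5p (2.88) lay close to the limit of 3, and both passed the weaker criteria. The neighbours were looked up after the members' values were seen.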
